A study of Mus musculus with 28 samples.

Results

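The comparison described here sets the RNA-seq library of mouse CD4+ T cells treated with IL-2 for 24 h against the library of the same kind of cells treated with IL-2 for 4 h. These are 2 of the 9 RNA-seq libraries analysed, out of 28 samples in the series; the other 19 are chromatin immunoprecipitation samples and are not analysed here. Both libraries were chosen by their labels alone. The cells of all 9 libraries were CD4+ T cells from the spleens of wild-type C57BL/6 mice, activated over 3 days on plates coated with 2 µg/ml of anti-CD3 in the presence of 1 µg/ml of anti-CD28, left to rest overnight and then given a cytokine or none. The further libraries are IL-2 for 0.5 and 2 h, IL-21 for 0.5, 2, 4 and 24 h, and cells without cytokine. All carry the wild-type genotype, and the labels give neither the age or number of the mice nor a cytokine dose for the RNA cultures. Each condition has 1 library, so differences have no replicate check and no p-values are given. No library without cytokine at 24 h was analysed, so the time in culture and the presence of IL-2 cannot be told apart.

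IL-2 is a growth factor of activated T cells. It binds a receptor of an alpha chain (CD25, encoded by Il2ra), a beta chain and the common gamma chain, and signals through the Janus kinases to STAT5, and through further pathways to MYC and to the mTOR kinase. An activated T cell that receives it grows, raises glucose uptake and lipid synthesis, copies its DNA and divides. Genes of S phase are switched on by E2F factors before those of mitosis, which are switched on by the MuvB complex with B-MYB and FOXM1.

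The authors' totals were 31038761 reads for IL-2 at 24 h and 40413416 reads for IL-2 at 4 h, and the 9 libraries ran between 29487905 and 44280989 reads. A single read in a transcript of 1 kb was worth 0.0322 RPKM at 24 h and 0.0247 RPKM at 4 h, where RPKM is the read count scaled by transcript length and library total. Levels are given as RPKM, and a difference is log2(RPKM + 1) after 24 h minus log2(RPKM + 1) after 4 h, which understates the change of genes near or below 1 RPKM. A gene was counted as higher or lower at a difference of 1 or more in size, that is 2-fold after adding 1 RPKM. Intervals beside ratios are exact 95% binomial intervals of the 2 read counts; they take in counting error alone, and not the spread between cultures, and without molecular identifiers the reads may repeat molecules.

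The CD4 T cell markers were expressed at like levels in both libraries. Their median difference over 10 genes was -0.05, with Cd4 at 112 RPKM after 24 h and 114 RPKM after 4 h and Cd3e at 155 and 144 RPKM. The 11 B cell markers that passed the filter summed to 28.7 RPKM after 24 h and 51.9 RPKM after 4 h, and 1 of them, Ms4a1 (CD20), was past the 2-fold mark at 6.19 and 15.2 RPKM. Of 12 macrophage markers 5 passed the filter and summed to 3.72 and 5.69 RPKM, with C1qb listed at 0 in both libraries. The CD8 markers Cd8a and Cd8b1 summed to 6.27 and 7.51 RPKM, and the 2 dendritic cell and 3 erythroid or platelet markers that passed each summed to under 2 RPKM in either library. Of the NK cell markers, the receptor genes stayed under 1 RPKM in all 9 libraries. The 2 that passed the filter, which activated T cells can express as well, were Gzma at 113 and 149 RPKM (-0.40) and the transcription factor gene Eomes at 2.45 and 1.61 RPKM (0.40). No neutrophil marker passed the filter. Of 7 RNAs on a list of nuclear or non-polyadenylated RNAs and of hosts of small nucleolar RNAs, 0 lay above 0 (median difference -0.83). Past the 2-fold mark were 2 (3 with upper quartile scaling), Gas5 (-1.10) and Snhg12 (-1.03). Both are such hosts, a family of which 15 of 16 lay below 0, and they are not read as nuclear RNAs. Short of the mark were Malat1 at 64.0 RPKM after 24 h against 126 RPKM after 4 h, and Neat1 at 47.0 after 24 h against 84.5 RPKM after 4 h. The part of these shifts in the results below was not tested. In bulk RNA, fewer cells of a type and less RNA per cell cannot be told apart.

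Of 11046 genes that reached 1 RPKM in at least 1 of the 9 libraries, 311 were higher after 24 h of IL-2 than after 4 h (2.82% of genes counted) and 102 were lower (0.923%). The median difference of all genes was 0.00, and 90% of genes lay between -0.64 and 0.80. All 413 counting intervals excluded equal levels. Only 19 genes were 4-fold or more higher, and 3 were 4-fold or more lower. Of the other steps of the IL-2 series, that from 0.5 to 2 h held 502 genes past the mark in either direction, more than the 413 of the late step, and that from 2 to 4 h held 22 higher and 34 lower at the later time. In 297 of the 311 higher genes the 24 h IL-2 library held the highest value of all 9. In 84 of the 102 lower genes it held the lowest. These genes were chosen by their value in that same library, so such ranks are in large part set by the choice. The share of all genes with this library highest or lowest is not given, here or beside the list counts below. With upper quartile scaling the balance was another one, as 228 genes were higher and 154 lower, so that the higher genes made up 59.7% of the genes past the mark, against 75.3% with the deposited scaling. That scaling lowered most differences slightly, and the 11 genes named below as higher that missed the mark with it were Bsg, Ccng2, Gins2, Ndufa4, Pgk1, Scd2, Slc2a3, Smc4, Tfrc, Tnfrsf9 and Vegfa. With 2 RPKM added in place of 1, 13 genes named below missed it, namely Ccnd2, Foxp3, Hist1h3c, Hist1h4d, Hspa1b, Ifit1, Lag3, Mxd4, Nfkbiz, Smc4, Tnfrsf25, Tnfrsf9 and Vegfa.

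**Figure D1:**
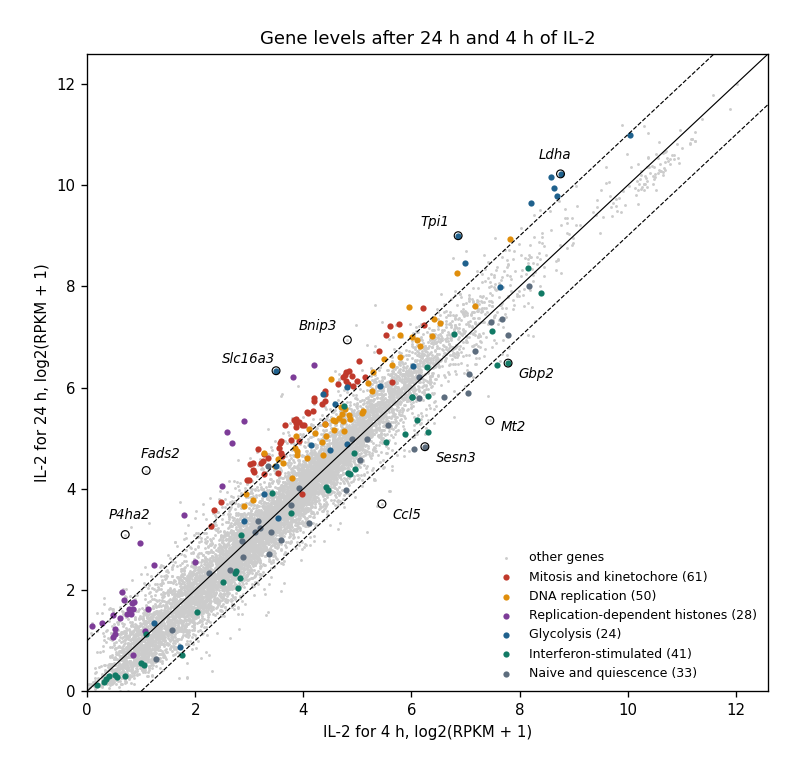
Level of each of 11046 genes after 24 h of IL-2 (vertical axis) and after 4 h (horizontal axis), both as log2(RPKM + 1); the solid line marks equal levels, the dashed lines 2-fold, and colours mark members of 6 gene lists. Of the mitosis genes 56 of 61 lie at or above the upper dashed line, of the glycolysis genes 11 of 24 and of the listed histone genes 14 of 28.

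Of the 55 gene lists examined, that of mitosis held the most genes that were higher. Of 61 listed genes of mitosis and the kinetochore, 56 were higher after 24 h and 0 lower, with a median difference of 1.34, beside 2.82% of all genes and a median of 0.00. Their median level was 39.2 RPKM after 24 h and 14.7 RPKM after 4 h. It had been 19.8 RPKM without cytokine, 21.33 RPKM at 0.5 h and 13.9 RPKM at 2 h, so the 4 h level lay below that of cells without cytokine and the 24 h level above it. In 60 of the 61 genes the 24 h IL-2 library was the highest of the 9.

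The 56 higher mitosis genes had differences between 1.003 and 1.63 and took in genes of every stage of division. The lower end of that range is set by the mark of 1, and all 61 genes ran from -0.08 to 1.63. Bub1, a kinase of the spindle checkpoint, was at 26.7 RPKM after 24 h and 7.99 RPKM after 4 h, a ratio of 3.35 (3.14 to 3.56) and the largest difference on the list at 1.63. Birc5, the survivin subunit of the chromosomal passenger complex, was at 147 and 47.4 RPKM (1.61), and its partner kinase Aurkb at 74.7 and 26.1 RPKM (1.48). Polo-like kinase Plk1 was at 54.6 and 17.5 RPKM (1.59). Among the cyclins that drive entry into mitosis, Ccna2 was at 131 and 45.0 RPKM (1.52), Ccnb1 at 78.5 and 26.5 RPKM (1.53), and their kinase Cdk1 at 57.3 and 20.0 RPKM (1.47). The motor protein gene Kif11, which pushes spindle poles apart, was at 72.6 and 25.6 RPKM (1.47), and Prc1, which bundles microtubules between the separating chromosomes, at 60.5 and 20.1 RPKM (1.55). Mki67, the gene of the proliferation marker Ki-67, was at 153 and 53.8 RPKM (1.49). Foxm1 and Mybl2, which encode transcription factors of mitosis genes, were at 29.2 and 23.5 RPKM after 24 h and at 10.9 and 9.13 RPKM after 4 h.

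The 5 mitosis genes that were not counted as higher were Cdc25c (0.97), Fzr1 (0.88), Cenpk (0.79), Bub3 (0.48) and Pttg1. Pttg1, the securin that holds separase inactive, stood at 13.9 RPKM after 24 h and 14.7 RPKM after 4 h (difference -0.08; ratio interval 0.813 to 1.09), the lowest difference on the list. At the 2-fold mark itself, Smc4, a condensin subunit, was just inside at 1.003.

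A shared sequence feature was looked for in the promoters of these genes, because mitosis genes are known for a cell cycle homology region bound by MuvB. Windows of 300 bases, from 250 before to 50 after the start of transcription, came from RefSeq (build GRCm38.p6); 52 of the 61 mitosis genes matched, with 58 windows. The letters TTTGAA, on either strand, were in 38 of the 58 windows (65.5%), in 1378 of 11116 windows of the genes counted (12.4%) and in 5878 of all 32851 windows (17.9%). Within 50 bases of the start on either side they were in 34 of the 58 (58.6%), against 3.25% of windows of the genes counted and 4.94% of all windows. Other genes held TTTGAA often too. It was in 12 of 25 windows of replication-dependent histones (48%) and 6 of 15 of regulatory T cell genes (40%), but in 4 of 66 of cytosolic ribosomal proteins. Higher genes off the mitosis list held it in 65 of 259 windows (25.1%), and in 14.3% within 50 bases of the start. The letters CCAAT, which can overlap TTTGAA by 1 base at most, were in 41 of the 58 (70.7%), against 38.4% of windows of the genes counted and 37.4% of all windows. That share was not particular to mitosis genes. It was 84% for replication-dependent histones, 83.3% for cholesterol synthesis and 70% for the tricarboxylic acid cycle, though other lists lay near all genes, such as cytosolic ribosomal proteins at 31.8%. A match is a description of the letters and does not show that a factor binds there. The 6 mitosis genes with the largest differences among those holding TTTGAA within 50 bases of the start are shown from 50 bases before to 50 bases after it, 5′ to 3′ on the strand of the gene, with TTTGAA or its reverse complement in capitals. Plk1 lies at chr7:122159385-122159484 (plus strand), Prc1 at chr7:80294401-80294500 (plus), Kif15 at chr9:122951031-122951130 (plus), Kif22 at chr7:127042371-127042470 (minus), Aurka at chr2:172370521-172370620 (minus) and Ccnb2 at chr9:70421505-70421604 (minus).
Plk1: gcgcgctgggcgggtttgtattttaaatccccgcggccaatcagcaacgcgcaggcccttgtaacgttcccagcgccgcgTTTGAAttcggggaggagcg
Prc1: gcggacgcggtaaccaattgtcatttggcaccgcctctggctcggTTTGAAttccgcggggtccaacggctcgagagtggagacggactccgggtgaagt
Kif15: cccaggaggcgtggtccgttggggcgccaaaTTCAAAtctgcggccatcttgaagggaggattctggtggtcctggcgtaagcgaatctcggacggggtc
Kif22: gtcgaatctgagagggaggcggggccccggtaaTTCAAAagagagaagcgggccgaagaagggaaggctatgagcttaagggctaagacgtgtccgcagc
Aurka: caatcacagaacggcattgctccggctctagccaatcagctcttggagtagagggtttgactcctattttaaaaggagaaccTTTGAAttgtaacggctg
Ccnb2: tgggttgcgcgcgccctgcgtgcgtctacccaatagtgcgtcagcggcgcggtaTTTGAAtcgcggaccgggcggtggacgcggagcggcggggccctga
The match began 30 bases after the start in Plk1, 32 after it in Aurka and 4 after it in Ccnb2, and 5, 19 and 17 bases before it in Prc1, Kif15 and Kif22. Their differences were 1.59, 1.504, 1.502, 1.55, 1.55 and 1.54 in that order. Bub1, Birc5 and Ccnb1 were as much higher and had no TTTGAA in their windows.

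DNA replication genes stood above their 4 h level too, by less. All 50 of 50 listed genes lay above 0, 11 were counted as higher (7 with upper quartile scaling) and 0 as lower, and the median difference was 0.82. The median level was 40.8 RPKM after 24 h and 25.1 RPKM after 4 h, with 19.6 RPKM without cytokine, 19.5 RPKM at 0.5 h and 17.6 RPKM at 2 h. In all 50 of them the 24 h IL-2 library was the highest of the 9. The 2 largest differences, of Tk1 and Rrm2, were those of genes that make nucleotides for DNA. The thymidine kinase gene Tk1 was at 71.1 RPKM after 24 h and 21.9 RPKM after 4 h (1.66), and the ribonucleotide reductase subunits Rrm2 and Rrm1 at 193 and 130.0 RPKM after 24 h and at 61.0 and 54.0 RPKM after 4 h (1.65 and 1.25). Top2a, a topoisomerase that untangles copied chromosomes, was at 306 and 113 RPKM (1.42), and the sliding clamp gene Pcna at 492 and 225 RPKM (1.12). Among the genes that load and form the replicative helicase, Gins2 was counted as higher at 35.4 and 16.2 RPKM (1.08), while Mcm7 at 162 and 84.8 RPKM (0.93) was under the mark. Mcm2 was at 112 and 70.3 RPKM (0.66), after 26.8 RPKM at 2 h, and Cdc6 at 24.6 and 13.7 RPKM (0.79), after 5.44 RPKM at 2 h. Orc1, an origin recognition subunit, was at 17.7 and 12.8 RPKM (0.44) after 2.50 RPKM without cytokine and 4.38 RPKM at 2 h. The E2F-like motif GGCGGGAA, which cannot overlap TTTGAA, was on either strand in 8 of 46 replication promoter windows (17.4%). It was in 1 of the 58 mitosis windows, against 4.21% of windows of the genes counted and 2.19% of all windows. The replication share was not particular to that list. DNA repair genes held the motif in 5 of 26 windows (19.2%), chaperones in 4 of 31 (12.9%) and replication-dependent histones in 3 of 25 (12%). Other lists held it less often, such as oxidative phosphorylation in 2 of 63.

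The genes that steer the G1 phase differed among themselves. Of 24 counted G1 genes, 6 were higher and 1 lower, with a median of 0.51. Ccnd2, a D-type cyclin and STAT5 target, was the lower one, at 101 RPKM after 24 h against 203 RPKM after 4 h (-1.002), just past the 2-fold mark. Its relative Ccnd3 was at 220.3 RPKM against 157 RPKM (0.48). Cyclin E gene Ccne1, which acts at the entry to S phase, was higher at 28.9 against 12.1 RPKM (1.20). The repressors of the E2F family E2f8 (25.4 against 7.85 RPKM) and E2f7 (6.36 against 2.18 RPKM), were higher, as was the activator E2f2 (29.5 against 12.9 RPKM). So was the CDK inhibitor Cdkn2c (23.5 against 7.09 RPKM, 1.60). The inhibitor Cdkn1b stood at 27.6 and 20.6 RPKM (0.40), and Cdkn1a at 51.8 and 64.5 RPKM (-0.31).

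Genes of replication-dependent histones, which package newly made DNA, were among the largest differences of all. Of 28 counted genes 14 were higher (8 with 2 RPKM added) and 0 lower, with a median of 0.97. The H2A genes led. Of 17 counted H2A genes of the Hist1 and Hist2 clusters, some of them not on that list, 16 were higher. Hist1h2ak was at 33.9 RPKM after 24 h and 5.04 RPKM after 4 h, a ratio of 6.74 (5.29 to 8.67), Hist1h2ab at 39.6 and 6.50 RPKM, Hist1h2ad at 72.7 and 13.03 RPKM, and Hist1h2ap, which is not on the list, at 197 and 39.3 RPKM. Of the 15 largest positive differences among all genes, 10 were those of H2A genes of the Hist1 cluster, from 2.23 to 2.53. H2A genes of this cluster are near-identical copies, so how the reads were divided among them is uncertain and they are not 10 independent measurements. The H3 and H4 genes counted were low throughout, such as Hist1h4d at 4.65 and 1.35 RPKM and Hist1h3c at 2.89 and 0.567 RPKM. Most of these histone messages lack a poly(A) tail. The nuclear RNAs Malat1 (difference -0.96) and Neat1 (-0.83) lay the other way between the same libraries, and the part of RNA selection in either was not tested.

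Of the genes for histone chaperones on new DNA, the chromatin assembly subunits Chaf1a and Chaf1b were under the mark (0.75 and 0.88). Asf1b and 2810417H13Rik were picked after their values were seen. The histone chaperone gene Asf1b was higher at 79.7 RPKM after 24 h and 23.1 RPKM after 4 h (1.74), 2810417H13Rik (Pclaf, a partner of the sliding clamp) at 156 and 43.0 RPKM (1.83), and H2afx, the variant phosphorylated at DNA breaks, at 63.6 and 26.5 RPKM (1.24). Of 34 DNA repair genes 6 were higher (3 with upper quartile scaling) and 0 lower (median 0.54), among them Brca1 at 15.2 and 5.69 RPKM (1.28). The maintenance methylation genes Uhrf1 (127 and 63.8 RPKM, 0.99) and Dnmt1 (133 and 72.9 RPKM, 0.86) stayed just under 2-fold.

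**Figure D2:**
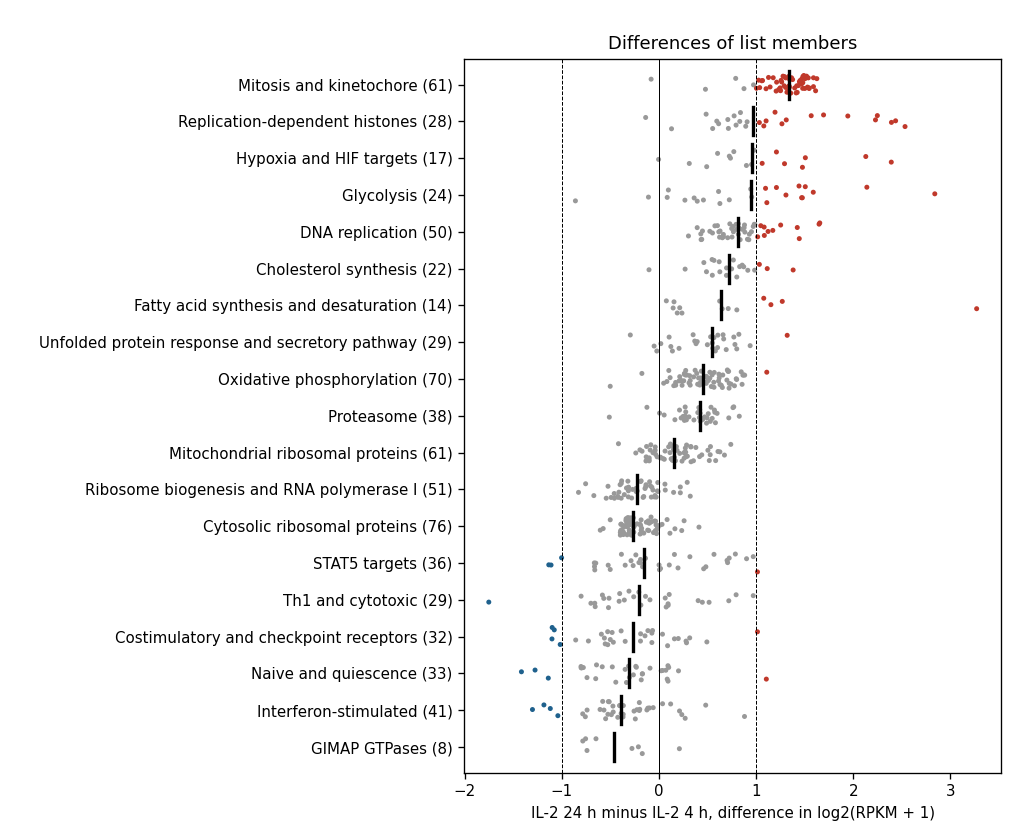
Difference in log2(RPKM + 1), IL-2 24 h minus IL-2 4 h, for each counted member of 19 gene lists (member number in brackets); points are genes, red at or over 2-fold higher, blue at or over 2-fold lower, and black bars are list medians. Medians run from 1.34 for mitosis down to -0.46 for the GIMAP GTPases.

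Many glycolysis genes were higher as well. Of 24 listed genes, 11 were higher (9 with upper quartile scaling) and 0 lower, with a median difference of 0.95. The median level was 63.9 RPKM after 24 h and 26.9 RPKM after 4 h; without cytokine it was 37.2 RPKM, at 0.5 h 41.2 RPKM and at 2 h 20.0 RPKM. The list thus passed through a low point at 2 h before its highest level at 24 h. At the start of the pathway, the glucose transporter gene Slc2a1 was at 63.5 RPKM after 24 h and 26.9 RPKM after 4 h (1.21), and Slc2a3 at 50.2 and 23.0 RPKM (1.10). Slc2a3 had stood at 77.9 RPKM without cytokine, above its 24 h level. The liver-type phosphofructokinase gene Pfkl was higher at 57.4 and 19.6 RPKM (1.51), whereas the hexokinase gene Hk2 was at 26.1 and 21.5 RPKM (0.27).

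Of the main enzyme genes of the later steps of glycolysis, from aldolase to pyruvate kinase, all but Gapdh and Eno2 of those given here were higher. Aldoa was at 804 RPKM after 24 h and 295 RPKM after 4 h (1.44), and triose phosphate isomerase Tpi1 at 512 and 115 RPKM, a ratio of 4.44 (4.32 to 4.55). Gapdh, the next enzyme and a common housekeeping control, was at 2037 and 1058 RPKM (0.94), short of the mark. Pgk1 was at 889 and 411 RPKM (1.11), Pgam1 at 351 and 125 RPKM (1.48), Eno1 at 983 and 397 RPKM (1.31) and the pyruvate kinase gene Pkm2 at 1149 and 382 RPKM (1.59). Several of these genes have many processed copies in the genome, and 1 enolase copy, Gm5506, was at 394 and 162 RPKM, so reads may be shared among them. The brain enolase gene Eno2 was on the other side at 0.82 and 2.304 RPKM (-0.86).

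The largest ratio on the list was that of Slc16a3, at the end of the pathway. Slc16a3, the lactate exporter, was at 79.7 RPKM after 24 h and 10.3 RPKM after 4 h, a ratio of 7.76 (7.25 to 8.30) and the second largest difference of all genes counted. It had been at 14.6 RPKM without cytokine and at 6.88 RPKM at 2 h, and was at 11.2 RPKM after 24 h of IL-21. Ldha, which turns pyruvate into lactate, was at 1196 and 432 RPKM (1.47), while Ldhb, which favours the reverse direction, was at 9.72 and 10.5 RPKM (-0.11). Bsg, the chaperone of lactate transporters, was at 186 and 88.3 RPKM (1.07).

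Targets of the hypoxia-inducible factor HIF, a pathway that overlaps with glycolysis, mostly lay above their 4 h level. Of 17 counted genes 16 lay above 0, 7 were higher (6 with upper quartile scaling) and 0 lower, with a median of 0.95 and a median level of 49.9 RPKM after 24 h against 18.6 RPKM after 4 h. The collagen prolyl hydroxylase genes P4ha2 and P4ha1 were at 7.55 and 20.0 RPKM after 24 h, against 0.63 and 7.56 RPKM after 4 h (2.39 and 1.29). P4ha2 stood at 0.243 RPKM after 24 h of IL-21. Bnip3, a receptor for the removal of mitochondria, was at 122 and 27.1 RPKM, a ratio of 4.50 (4.28 to 4.73). The HIF prolyl hydroxylase Egln3 was at 113 and 39.1 RPKM (1.51) and the angiogenic factor Vegfa at 7.69 and 3.16 RPKM (1.06). The gene 4930583H14Rik, which RefSeq now names Mgarp, was at 8.43 and 0.764 RPKM (2.42). Hif1a itself, which encodes the regulated subunit of the factor, was level at 135 and 135 RPKM (ratio interval 0.979 to 1.02).

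In the promoter windows of HIF targets the core of the hypoxia response element, ACGTGC on either strand, was in 11 of 21 windows (52.4%). It was in 8.23% of windows of the genes counted and 5.91% of all windows. The glycolysis list held it in 8 of 36 windows (22.2%), but such a share was not particular to that list. Serine, one-carbon and nucleotide synthesis held it in 6 of 28 windows, and the MYC network in 3 of 12. Other lists held it less often, such as cholesterol synthesis in 0 of 18. ACGTGC can overlap the E-box CACGTG, which was in 10.3% of windows of the genes counted and 7.15% of all windows. Genes of the HIF target and glycolysis lists holding ACGTGC in the 120 bases before the start were ranked by their differences. The 6 with the largest differences are shown over those 120 bases, 5′ to 3′ on the strand of the gene. ACGTGC or its reverse complement is in capitals. Slc16a3 lies at chr11:120948947-120949066 (plus strand), P4ha2 at chr11:54100804-54100923 (plus), Bnip3 at chr7:138909507-138909626 (minus), Pgam1 at chr19:41911751-41911870 (plus), Ldha at chr7:46845684-46845803 (plus) and P4ha1 at chr10:59323176-59323295 (plus), in build GRCm38.p6 from RefSeq.
Slc16a3: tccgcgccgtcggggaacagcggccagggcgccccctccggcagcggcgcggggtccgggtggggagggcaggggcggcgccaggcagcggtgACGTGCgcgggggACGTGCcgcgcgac
P4ha2: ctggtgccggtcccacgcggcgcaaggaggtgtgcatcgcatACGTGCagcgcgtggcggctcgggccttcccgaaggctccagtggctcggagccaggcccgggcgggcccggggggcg
Bnip3: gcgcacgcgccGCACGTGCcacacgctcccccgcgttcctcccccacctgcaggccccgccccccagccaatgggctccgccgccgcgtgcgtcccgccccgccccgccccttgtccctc
Pgam1: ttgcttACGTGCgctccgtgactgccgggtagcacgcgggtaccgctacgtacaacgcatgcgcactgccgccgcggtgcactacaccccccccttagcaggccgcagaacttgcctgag
Ldha: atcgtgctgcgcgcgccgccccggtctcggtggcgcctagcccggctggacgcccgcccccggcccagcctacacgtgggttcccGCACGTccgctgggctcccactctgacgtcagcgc
P4ha1: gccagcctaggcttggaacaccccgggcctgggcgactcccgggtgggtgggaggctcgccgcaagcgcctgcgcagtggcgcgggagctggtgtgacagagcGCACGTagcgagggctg
Slc16a3 holds 2 copies, which begin 27 and 14 bases before the start. Bnip3 holds an overlapping pair, one on each strand, 109 and 107 bases before it. The other 4 genes hold 1 each. Their differences in order of printing were 2.84, 2.39, 2.13, 1.48, 1.47 and 1.29.

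Among lipid synthesis genes the desaturases were higher, and Fads2 led all genes. Fads2, the delta-6 desaturase that starts the synthesis of long polyunsaturated fatty acids, was at 19.6 RPKM after 24 h and 1.13 RPKM after 4 h, a ratio of 17.3 (13.5 to 22.4) and a difference of 3.27. In the other 7 libraries it lay between 1.10 and 1.56 RPKM, so that the 24 h IL-2 library alone was high. Its neighbour in the pathway, Fads1, was at 15.6 and 5.89 RPKM (1.27). The stearoyl-CoA desaturases Scd1 and Scd2 were at 10.7 and 152 RPKM after 24 h and at 4.27 and 71.3 RPKM after 4 h (1.15 and 1.08); without cytokine Scd2 had been at 157 RPKM, so that its 24 h level is close to that of untreated cells. The desaturases were the 4 of 14 fatty acid genes counted as higher, with 0 lower (median 0.64). Fasn, the fatty acid synthase, was at 63.8 and 57.2 RPKM (0.15) and had been at 21.5 RPKM without cytokine. Of 22 cholesterol genes 3 were higher and 0 lower, yet 21 lay above 0 and the median was 0.72. The farnesyl diphosphate synthase gene Fdps was at 103 and 38.8 RPKM (1.38), and Insig1, a sterol-regulated brake on the pathway, at 43.0 and 19.3 RPKM (1.11). The acyl-CoA binding protein gene Dbi was at 113 and 35.2 RPKM (1.66). By contrast Plin2, which coats stored lipid droplets, was lower at 8.998 against 24.7 RPKM (-1.36), and had been at 74.9 RPKM without cytokine.

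Broad housekeeping lists differed by less than 2-fold in their medians. For scale, 2.82% of all genes were higher and 0.923% lower. Of 70 oxidative phosphorylation genes 68 lay above 0, with a median of 0.45, and 1 was counted as higher, Ndufa4, a subunit tied to cytochrome oxidase, at 146 and 66.9 RPKM (1.11). Of 38 proteasome genes 36 lay above 0 (median 0.42), with 0 past the mark. Of the catalytic subunits of the immunoproteasome, Psmb8 was at 329 and 284 RPKM (0.21), Psmb9 at 132 and 109.5 RPKM (0.27) and Psmb10 at 58.7 and 84.0 RPKM (-0.51). Of 29 genes of protein folding in the secretory pathway 26 lay above 0 (median 0.55); Sdf2l1 was counted as higher at 72.7 and 28.5 RPKM (1.32), and the chaperone Hsp90b1 was at 301 and 157 RPKM (0.94). Of 30 chaperone and heat shock genes 24 lay above 0 (median 0.22), with 0 higher and 2 lower. The lower pair, the inducible cytosolic chaperone genes Hspa1a and Hspa1b, are near-identical copies at low levels, at 0.219 and 0.47 RPKM after 24 h against 2.58 and 2.62 RPKM after 4 h.

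Genes that build ribosomes mostly lay slightly below their 4 h level. Of 51 ribosome biogenesis genes 7 lay above 0 and 0 reached 2-fold in either direction, with a median of -0.22. Their median level was 28.2 RPKM after 24 h and 32.3 RPKM after 4 h, both above the 11.9 RPKM of cells without cytokine. Polr1b, a large subunit of RNA polymerase I, was at 13.4 and 23.3 RPKM (-0.76) and nucleolin, Ncl, at 165 and 149 RPKM (0.15). Of 76 cytosolic ribosomal protein genes 8 lay above 0 (median -0.26), and in 58 of them the 24 h IL-2 library was the lowest of the 9. These genes held 21.7% of all RPKM after 24 h and 26.6% after 4 h. The mitochondrial ribosomal proteins had a median of 0.16 over 61 genes. Myc, which encodes a driver of ribosome production, was at 93.6 and 107 RPKM (-0.19). Its antagonists parted: Mxd3 was higher at 29.7 and 10.1 RPKM (1.46) and Mxd4 lower at 4.73 and 11.4 RPKM (-1.11).

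**Figure D3:**
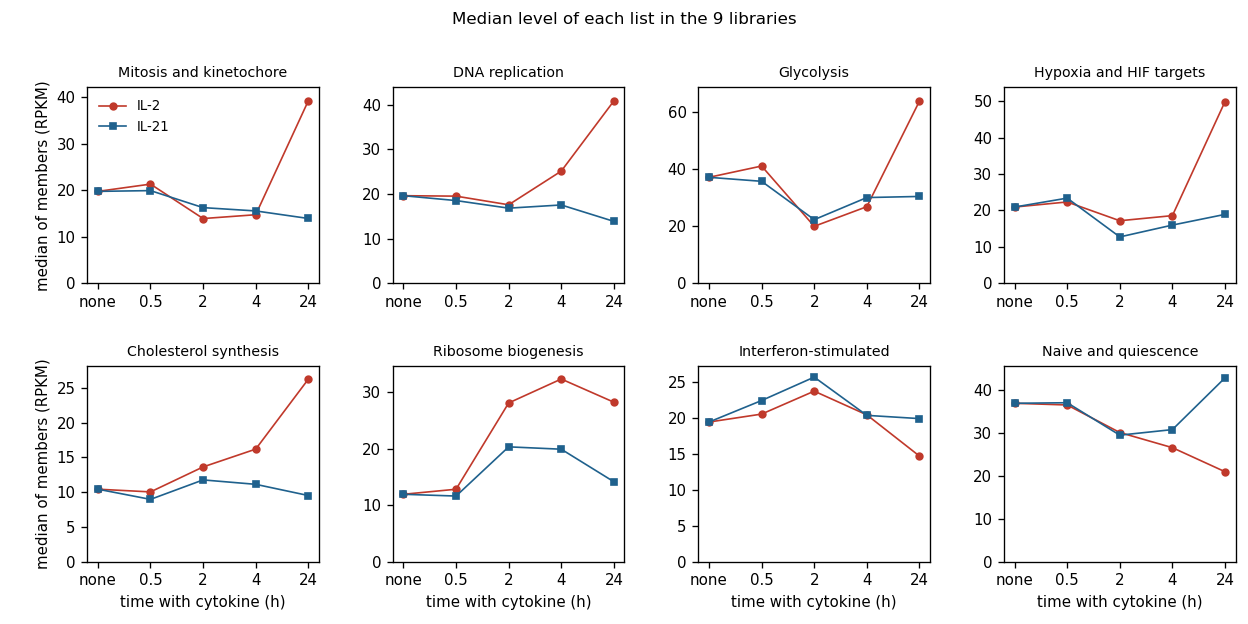
Median RPKM over the counted members of 8 gene lists without cytokine and at 0.5, 2, 4 and 24 h (equally spaced, not to scale) with IL-2 (circles) and with IL-21 (squares), 1 library per point. With IL-2 the mitosis median stood at 39.2 RPKM for 24 h and 14.7 RPKM for 4 h, whereas ribosome biogenesis genes had their highest median at 4 h.

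Genes known to respond to STAT5, the main factor of IL-2 signalling, had differences of both signs in the late step. Of 36 listed genes 1 was higher and 3 lower, with a median of -0.15, beside 2.82% of all genes higher and 0.923% lower. The 1 higher gene is near the share of all genes and is not read as a result about the list. Il2ra itself was at 596 RPKM after 24 h and 433 RPKM after 4 h (0.46), a ratio of 1.38 (1.36 to 1.39), below the mark but the highest of the 9 libraries. The feedback inhibitor Socs2 (132 and 80.7 RPKM, 0.70) and the cytokine Il24 (31.4 and 16.4 RPKM, 0.90) were also above their 4 h level by less than 2-fold. Gzmb, the cytotoxic protease granzyme B, was at 827 and 421 RPKM (0.97), just under the mark. Tnfrsf9 (4-1BB), a costimulatory receptor, was the one counted as higher at 51.9 and 25.2 RPKM (1.01), and fell short of the mark with TMM, upper quartile or median-of-ratios scaling. Other genes of the list had their highest IL-2 level at an earlier time. Lta, which encodes lymphotoxin alpha, was lower at 130.4 RPKM against 283 RPKM after 4 h (-1.11), having stood at 22.4 RPKM without cytokine and 194 RPKM at 0.5 h. Cish, an early feedback inhibitor, was at 146 and 207 RPKM (-0.50) after 336 RPKM at 0.5 h, and the cytokine Osm at 43.2 and 69.0 RPKM (-0.66). Foxp3 was lower, at 2.16 against 5.93 RPKM (-1.13).

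The main receptor chains of the pathway were under the 2-fold mark. Of 10 counted receptor genes 0 were past it, and 1 was lower with upper quartile scaling. Il2rb was at 323 RPKM after 24 h and 300.3 RPKM after 4 h (0.11) and the common gamma chain Il2rg at 199 and 236 RPKM (-0.25). Il15ra, the partner alpha chain that binds IL-15, was at 5.64 and 11.8 RPKM (-0.95). Stat5a and Stat5b were at 23.9 and 32.5 RPKM after 24 h, against 31.9 and 34.6 RPKM after 4 h. The median difference of 19 JAK-STAT genes was 0.03, and -0.08 with upper quartile scaling. The transferrin receptor gene Tfrc, which brings in iron for growing cells, was higher at 134 and 63.9 RPKM (1.06) after 16.4 RPKM without cytokine.

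Interferon-stimulated genes mostly lay below their 4 h level. Of 41 listed genes 4 were lower and 0 higher, beside 0.923% of all genes lower; 7 lay above 0, the median was -0.39, and in 28 the 24 h IL-2 library was the lowest of the 9. Gbp2, a guanylate-binding GTPase of cell defence, was at 88.6 RPKM after 24 h and 219.9 RPKM after 4 h, and Gbp6 at 33.9 and 78.3 RPKM (-1.30 and -1.18). Ifit1 was at 0.635 and 2.36 RPKM (-1.04). Isg20, an exonuclease, stood on the other side at 48.8 and 26.0 RPKM (0.88).

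Genes of naive and resting T cells mostly lay lower as well, with 9 above 0, 3 of 33 lower, 1 higher and a median of -0.30. Beside these counts, 0.923% of all genes were lower and 2.82% higher. Sesn3, a FOXO target that restrains mTOR, was at 27.5 RPKM after 24 h and 75.04 RPKM after 4 h (-1.42), the antiproliferative gene Btg1 at 26.5 and 65.5 RPKM (-1.28), and Txnip, which limits glucose uptake, at 58.9 and 131 RPKM (-1.14). These 3 stood lower at each later time of the IL-2 series from 0.5 h on. Btg1 was at 178 RPKM at 0.5 h and 109.7 RPKM at 2 h, Txnip at 213 and 179.8 RPKM, and Sesn3 at 171 and 105 RPKM. Arrdc4, a relative of Txnip, was at 0.206 and 2.62 RPKM (-1.58). The homing receptor gene Ccr7 was at 76.0 and 133 RPKM (-0.80), while Tcf7, a factor of naive and memory cells, was level at 72.9 and 69.3 RPKM (0.07). Ccng2, an unconventional cyclin of resting cells, was the higher one at 20.9 and 9.19 RPKM (1.11). The GIMAP GTPases of lymphocyte survival had a median of -0.46 over 8 genes, with 0 past the mark.

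Surface receptors of costimulation and inhibition comprised Tnfrsf9 as higher and 4 lower genes (2 with 2 RPKM added), of 32 counted (median -0.27). Over all genes counted, 2.82% were higher and 0.923% lower. Cd27, a costimulatory receptor of less differentiated T cells, was at 26.1 RPKM after 24 h and 57.1 RPKM after 4 h (-1.10), and the inhibitory receptor Lag3 at 7.29 and 16.5 RPKM (-1.08). Tnfrsf14 (HVEM) was at 11.5 and 25.9 RPKM (-1.10) and Tnfrsf25 at 12.2 and 25.7 RPKM (-1.02). Ctla4 and Icos stood at 55.1 and 109 RPKM after 24 h, against 49.2 and 87.3 RPKM after 4 h, both under the mark.

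Effector and helper genes past the mark were few, where 2.82% of all genes were higher and 0.923% lower. The chemokine gene Ccl5 was at 12.01 RPKM after 24 h against 42.8 RPKM after 4 h (-1.75), with a ratio interval of 0.239 to 0.327; it was the only member lower among 29 Th1 and cytotoxic genes, of which 0 were higher (median -0.21). Ctsw, a cathepsin of cytotoxic lymphocytes that is not on that list, was at 14.5 and 47.7 RPKM (-1.65). Among Th2 genes Il5 was just under the mark at 3.21 and 1.11 RPKM, Il4 at 18.9 and 16.3 RPKM (0.21) and the lineage factor Gata3 at 42.4 and 44.6 RPKM (-0.07), while Maf, a factor for Il4 and Il10, was lower at 38.5 and 84.6 RPKM (-1.12). The Th2 median of 0.11 over 13 genes became -0.00 with upper quartile scaling. Of 18 genes of regulatory T cells, Foxp3 and Itgae were lower (median -0.25); Itgae, the integrin chain CD103, was at 0.311 and 3.95 RPKM (-1.92). Mif, which encodes a secreted inflammatory factor, was higher at 568 and 259 RPKM (1.13), and of 30 secreted cytokine and chemokine genes it was the only one higher, with 3 lower. The survival gene Bcl2 was level at 93.2 and 92.9 RPKM (0.01).

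Of the genes of the cell skeleton, Myo6 stood higher at each later time of the IL-2 series. Myo6, an unconventional myosin, was at 0.717 RPKM without cytokine, 1.11 RPKM at 0.5 h, 5.37 RPKM at 2 h, 12.8 RPKM at 4 h and 41.5 RPKM at 24 h, a late difference of 1.62. Enah, an actin regulator, was at 18.2 and 7.78 RPKM (1.13) after 1.68 RPKM at 2 h. The list of actin, myosin and adhesion genes had 3 of 48 higher and 1 lower, beside 2.82% of all genes higher and 0.923% lower. Its median was 0.05, and -0.01 with upper quartile scaling. St6gal1, a sialyltransferase gene on no list, was higher at 35.4 and 9.15 RPKM (1.84), after 19.5 RPKM without cytokine.

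Most of the largest negative differences were those of genes on no list. The gene 2410006H16Rik was at 76.6 RPKM after 24 h and 365 RPKM after 4 h (-2.24), after 684 RPKM without cytokine. Mt2, a metallothionein that binds zinc and copper, was at 39.9 and 174 RPKM (-2.10). The list continued with 2010016I18Rik at 7.88 and 35.3 RPKM, Slfn5 at 1.86 and 8.86 RPKM, Tcp11l2 at 1.96 and 9.11 RPKM, and Ncf1, a subunit of the phagocyte NADPH oxidase, at 11.7 and 40.0 RPKM. Apol7b and Apol7e, near-identical apolipoprotein L genes, were at 1.36 and 2.94 RPKM after 24 h and at 5.99 and 11.02 RPKM after 4 h. Also among the 15 largest were 2410004N09Rik at 14.6 and 46.7 RPKM (-1.61) and 2900005J15Rik at 1.06 and 5.25 RPKM (-1.60). So was 1500012F01Rik at 56.1 and 170 RPKM (-1.58). Ogt, which attaches N-acetylglucosamine to nuclear proteins, was at 41.8 and 109 RPKM (-1.37), and Nfat5, a factor of salt stress, at 8.28 and 23.9 RPKM (-1.42).

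The lists not yet described held 0 or 1 gene past the mark each, where 2.82% of all genes were higher and 0.923% lower. In lists of these sizes a single gene past the mark is not read as a result about the list. The tricarboxylic acid cycle had 0 of 17 (median 0.22), serine, one-carbon and nucleotide synthesis 0 of 27 (0.15), and translation initiation factors 0 of 36 (0.07, and -0.04 with upper quartile scaling). ATF4 targets and amino acid supply had 1 of 27 higher (0.12). Immediate early genes had 1 of 31 lower, the phosphatase gene Dusp2 at 23.97 RPKM after 24 h against 57.0 RPKM after 4 h (-1.22). NF-kappaB subunits and feedback genes had 1 of 21 lower, Nfkbiz at 4.77 against 11.2 RPKM (-1.08), or 2 with upper quartile scaling. Autophagy and lysosome genes had 1 of 45 lower (3 with upper quartile scaling). No member was past the mark among 37 genes of T cell receptor signalling (median -0.03), 8 SOCS feedback inhibitors (-0.18), 9 Th17 genes (-0.22), 13 follicular helper genes (-0.11), 14 chemokine receptors (-0.11), 16 BCL2 family genes (-0.16) or 20 p53 targets (-0.35). With upper quartile scaling 1 BCL2 family gene and 2 p53 targets were lower.

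**Figure D4:**
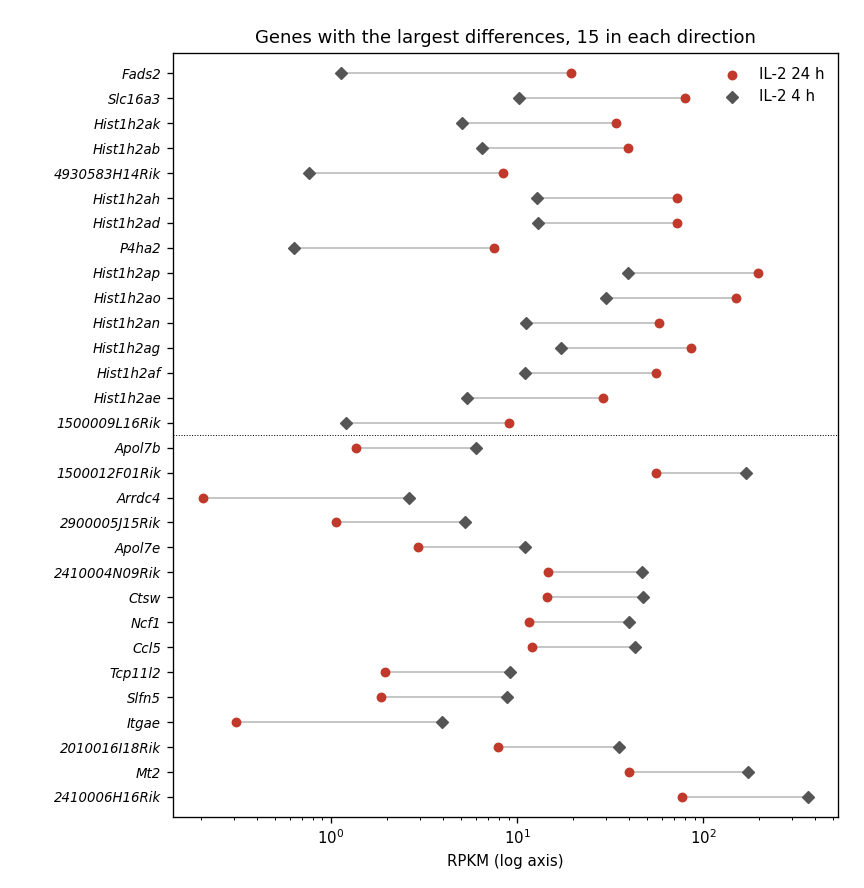
RPKM after 24 h of IL-2 (circles) and after 4 h (diamonds) on a log axis for the 15 genes with the largest positive differences (top) and the 15 with the largest negative differences (bottom), 1 library per point. Fads2 stood at 19.6 against 1.13 RPKM and 2410006H16Rik at 76.6 against 365 RPKM.

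The same step with IL-21, which shares no library with the IL-2 step, had other leading genes. IL-21 binds the common gamma chain too but acts mainly through STAT3. From 4 h to 24 h of IL-21, 171 genes were higher (1.55%) and 81 lower (0.733%). Across the 11046 genes the 2 steps had a Pearson correlation of 0.07 and a Spearman correlation of 0.06, given as a description, since genes are not independent replicates. Of the 311 genes higher with IL-2, 7 were higher with IL-21 (2.25% of 311, 4.09% of the 171), and of the 102 lower genes 18 were lower in both (17.6% of 102, 22.2% of the 81). Mitosis genes had a median difference of 1.34 with IL-2 and -0.24 with IL-21, where 0 of 61 reached 2-fold; replication genes had 0.82 and -0.23, glycolysis genes 0.95 and -0.17, and cholesterol genes 0.72 and -0.20. Naive and quiescence genes lay the other way round, at -0.30 with IL-2 and 0.50 with IL-21, as did Th1 and cytotoxic genes at -0.21 and 0.67, of which 10 of 29 were higher with IL-21. Interferon-stimulated genes stood at -0.39 and 0.24. Ribosome biogenesis genes were below 0 in both steps, at -0.22 and -0.47. B cell markers were too, at -0.50 with IL-2 and -0.84 with IL-21. These differences between the cytokines were not tested, with 1 library each.

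The few genes higher in both steps included Ifitm1, an interferon-induced membrane protein, with differences of 1.45 for IL-2 and 1.89 for IL-21, Dck, the deoxycytidine kinase of nucleotide salvage (1.15 and 1.10), and Trat1, an adaptor of the T cell receptor (1.55 and 1.34). St6gal1 (1.84 and 1.43), Iqgap2, Entpd5 and 1500009L16Rik made up the 7. Those lower in both included the metallothioneins Mt1 (-1.11 and -2.03) and Mt2 (-2.10 and -2.09), the phosphatase Dusp2 (-1.22 and -1.05), Hspa1a (-1.56 and -1.36) and Plin2 (-1.36 and -1.03). Ms4a1, the B cell marker, was lower in both as well (-1.17 and -1.94).

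**Figure D5:**
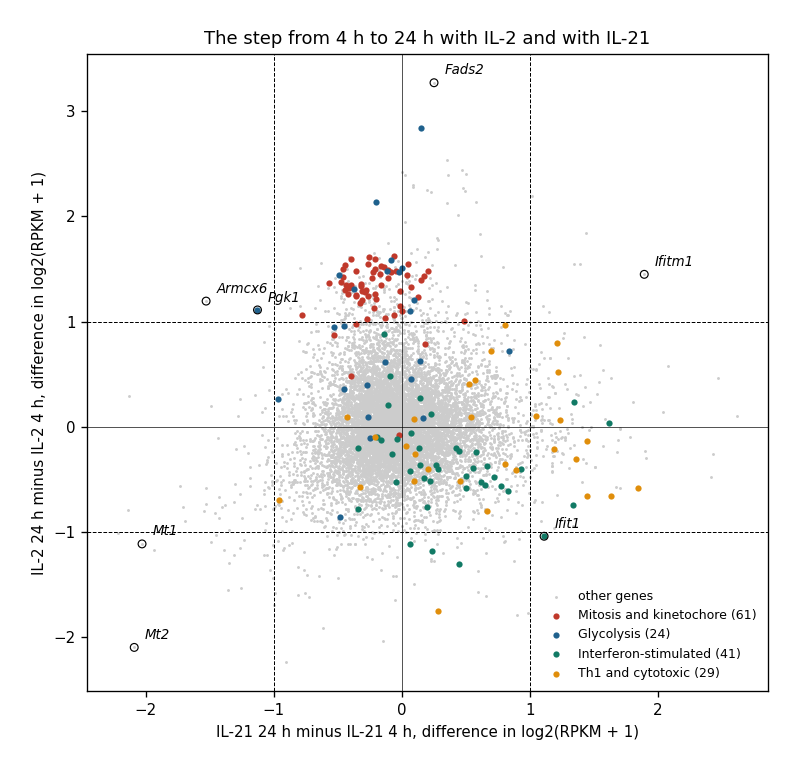
Difference in log2(RPKM + 1) between 24 h and 4 h with IL-2 (vertical axis) and with IL-21 (horizontal axis) for 11046 genes; dashed lines mark 2-fold and colours mark members of 4 gene lists. Mitosis genes form a cloud above 1 on the IL-2 axis and just below 0 on the IL-21 axis, and the correlation across genes is 0.07.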

How the data were processed

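RNA-seq was done on total RNA with a stranded kit, per the labels' protocols. The submitters' processing notes list Bowtie 0.12.9, HOMER, SAMtools, TopHat2 2.0.11 and the build mm9 but give no roles. The counting tool, and its use of strand, is not given in the sources used here, so overlapping genes cannot be told apart. The authors deposited, per transcript, the raw read count and the RPKM, which scales counts by transcript length and library total.

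Where a symbol had several transcripts, the one whose mean RPKM across all 9 libraries was highest was kept, short RNA symbols were left out, and genes under 1 RPKM in all 9 libraries were dropped. With 1 library per condition no test across genes was made. Members, gene lists and tests were chosen with earlier results of these data known. Genes named are the 15 largest differences in each direction, up to 10 members of each list by size plus members needed by their role, and genes past 2-fold in opposite directions with the 2 cytokines. Further genes (2810417H13Rik, Asf1b, Bsg, Dbi, Dck, Gm5506, Ifitm1, Mt1, Nfat5, Ogt, Plin2, St6gal1, Trat1, Iqgap2, Entpd5) were chosen after their values were seen. Alternatives were other pseudocounts, filters, scalings (edgeR 4.0.16 for TMM and upper quartile, DESeq2 1.42.0 for median of ratios, in R 4.3.3), transcripts and short RNAs. Counting was tested on simulated data. Python 3.11.15, pandas 2.3.3, numpy 2.4.6, scipy 1.17.1 and matplotlib 3.10.9 were used. Promoter windows of RefSeq genes matched 8784 of the 11046 genes by gene ID. Some genes of the lists are not reported here.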

Additional observations from a re-analysis of the deposited data

Results flagged for a closer look

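Genes past 2-fold in opposite directions in the IL-2 and the IL-21 step from 4 h to 24 h stand out here, and there were 3 of them. The difference between the steps was not tested, since each rests on 1 library per condition. Armcx6 stood, with IL-2, at 5.46 RPKM after 24 h against 1.82 RPKM after 4 h (difference 1.19), and at 1.97 RPKM after 24 h of IL-21 against 7.58 RPKM after 4 h (-1.53), a gap of 2.72 between the steps. Pgk1, the phosphoglycerate kinase of glycolysis, had differences of 1.11 with IL-2 and -1.13 with IL-21, a gap of 2.238. Ifit1, an interferon-induced gene, had -1.04 with IL-2 and 1.11 with IL-21, a gap of -2.15, at levels of 0.635 RPKM after 24 h and 2.36 RPKM after 4 h of IL-2.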

How the results depend on the processing

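No paired analysis was possible because each condition has 1 library. Over 10 alternatives the count of genes higher after 24 h ran from 228 to 380, against 311. The count of lower genes was 102, and became 174 with a pseudocount of 0.5 RPKM, 68 with 2 RPKM, 142 with short RNA symbols kept and 154 with upper quartile scaling. With upper quartile scaling 228 of the 311 higher genes remained higher. All 102 lower genes remained lower, but that scaling moves differences downward, so it could hardly have removed them and does not check these calls. The median difference of all genes, 0.00192 on the log2 scale, became 0.0287 for genes reaching 5 RPKM, -0.0233 with TMM, -0.0929 with upper quartile and -0.0224 with median-of-ratios scaling. For the IL-21 step, with alternatives chosen after seeing the data, the count of lower genes, 81, became 137 with a pseudocount of 0.5 RPKM and 47 with 2 RPKM. The list medians of translation initiation factors, JAK-STAT components, Th2 genes and actin, myosin and adhesion genes changed sign with upper quartile scaling. No called gene among those named changed sign under any of the 10 alternatives, but most of these could not have changed one. Another pseudocount or filter leaves the sign as it is. The largest shift of the median by a scaling, -0.0948 with upper quartile, is small beside the mark of 1. Only the choice of transcript could have reversed such a gene. Depth limits genes near 1 RPKM. The spread between cultures is not known from these libraries.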

Other observations

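Some gene families that were on no list, or only in part on one, stood out after their values were seen, so their counts are descriptions of these 2 libraries. Over all genes 2.82% were higher and 0.923% lower in the IL-2 step. Of 8 counted genes of HMG chromatin proteins, which bend or loosen DNA in chromatin, 6 were higher after 24 h of IL-2 and all lay above 0, with a median difference of 1.15; the IL-21 step had a median of -0.03. Hmgb2 was at 377 RPKM after 24 h and 108 RPKM after 4 h, and Hmgn2 at 414 and 128 RPKM. Among 26 kinesins, motors that walk on microtubules, 14 were higher, and among 14 tubulins 4 were. Many of the higher kinesins, such as Kif11, Kif15 and Kif22, are on the mitosis list too, so this is in large part the same result. All 3 counted IFITM genes, whose proteins block virus entry at membranes, were higher with a median of 1.35, while the interferon-stimulated list had a median of -0.39. Ifitm2 was at 60.0 and 23.9 RPKM.

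All 11 counted GBP GTPases, interferon-induced proteins of defence inside cells, lay below 0 in the IL-2 step, with a median of -0.90. Of these, 5 were past 2-fold, beside 0.923% of all genes lower, and the IL-21 median was 0.29. Host genes of small nucleolar RNAs, which guide chemical marks on ribosomal RNA, were picked by symbol, so hosts under other names may be missing. Of the 16 found, 15 lay below 0 and 4 were past 2-fold, with a median of -0.69. The IL-21 step had a like median of -0.73. Gas5 was at 91.6 RPKM after 24 h and 198 RPKM after 4 h of IL-2. Of 3 metallothioneins 2 were lower in each step. Among 311 zinc finger Zfp genes 242 lay below 0 with IL-2, and 0 were past 2-fold (median -0.18, and 0.08 with IL-21). These family medians kept their sign under TMM, upper quartile and median-of-ratios scaling of the IL-2 step.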
